A study of Saccharomyces cerevisiae with 18 samples.

Results

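The RNAs described here are the Xrn1-sensitive unstable transcripts (XUTs) of budding yeast that overlap no open reading frame (ORF) on the other strand. XUTs are non-coding RNAs that accumulate when Xrn1, the main cytoplasmic exonuclease acting from the 5′ end, is missing, and most of them run antisense to a gene. A XUT was taken as a member when its annotated span overlapped no feature with an ORF identifier on the opposite strand of the same chromosome. This held for 415 of 1658 XUTs, and the other 1243 are called antisense XUTs below. The count tables listed 12289 features in all, among them 6682 ORF features, 847 stable unannotated transcripts (SUTs) and 2 sets of cryptic unstable transcripts (CUTs) of 925 and 1315 features.

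Xrn1 degrades XUTs in the cytoplasm after their caps are removed. There ribosomes can start on short reading frames near their 5′ ends, and such a frame followed by a long untranslated tail is a feature that nonsense-mediated mRNA decay (NMD) recognises. NMD removes RNAs on which translation stops early. Its core helicase is Upf1, and Nmd4 and Ebs1 are proteins that bind to Upf1 complexes.

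Stranded libraries of total RNA depleted of ribosomal RNA were made from 6 groups of 3 samples, grown in rich medium at 30 °C. The first series held a upf1 deletion and its wild type, both in BY4741 of mating type a. The second series held an nmd4 deletion, an ebs1 deletion, a strain labelled as carrying both deletions, and a wild type. The labels give BY4742 of mating type alpha for the doubly labelled strain and BY4741 of mating type a for the other 3 groups of that series. BY4741 and BY4742 are laboratory haploids of the S288C lineage that carry different auxotrophies, so parent strain, mating type and genotype cannot be told apart in that strain. Each count is a read assigned to a feature on its own strand, and a read was assigned to every feature it overlapped.

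The libraries held 14243384 to 31452109 counts. NAM7, which is UPF1, stood at 8.35 to 9.01 CPM (the count relative to the total of its library, with TMM scaling) in the upf1 deletion, against 246 to 256 CPM in its wild type. NMD4 stood at 1.94 to 3.60 CPM in the nmd4 deletion, against 22.8 to 31.5 CPM in wild type, and EBS1 at 3.09 to 4.43 CPM in the ebs1 deletion, against 132 to 157 CPM in wild type. In the libraries labelled nmd4 ebs1 deletion, EBS1 was at 4.09 to 6.04 CPM but NMD4 was at 64.1 to 80.8 CPM, above every wild-type library, so NMD4 goes against that label. MF(ALPHA)1, the alpha-factor gene, was at 845 CPM or more in those 3 libraries and below 1 CPM in the other libraries of the series, and STE2, the alpha-factor receptor of a cells, was at 5.78 to 6.61 CPM, against 272 to 549 CPM in wild type.

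The 415 XUTs were spread over 16 chromosomes, with 10 on chromosome III and 45 on chromosome IV. They were 252 to 2908 bases long with a median of 535 bases, shorter than the median of 703 bases of the antisense XUTs. Their median GC content was 36.9%, against 39.2% in the antisense XUTs. Although none faced an ORF feature, 207 overlapped another non-coding feature on the opposite strand, in 133 cases another XUT. A further property was overlap on the same strand, which 53 members had with an ORF feature and 184 with a SUT or CUT. Since a read counted for every feature it overlapped, such members share their counts with that neighbour, and 97 members overlapped nothing listed on either strand. Of all members, 193 started within 500 bases of the start of an oppositely directed ORF feature, 155 ended within 500 bases upstream of an ORF feature on their own strand, and 80 did both. Only 47 lay within 20 kb of a chromosome end. ORF features in the tables include untranslated regions, and with coding spans of RefSeq alone 512 XUTs would have lacked an opposite gene.

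The annotated 5′ starts are shown because a short frame close to the 5′ end is what ribosomes would meet first. In the genome the first ATG of a member lay at a median of base 33 from its start, and the frame it opened had a median of 14 codons and at most 87. A median of 434 bases followed the stop codon, against 598 in the antisense XUTs, whose first frames had a median of 13 codons. The sequences below are the first 200 bases, in RNA direction, of the 6 members that rose most in the upf1 deletion under the naming rule and of XUT_12R-389, the member called in the ebs1 deletion. They were read from the RefSeq R64 genome. Capitals mark the frame from the first ATG to its stop codon.
XUT_15F-1: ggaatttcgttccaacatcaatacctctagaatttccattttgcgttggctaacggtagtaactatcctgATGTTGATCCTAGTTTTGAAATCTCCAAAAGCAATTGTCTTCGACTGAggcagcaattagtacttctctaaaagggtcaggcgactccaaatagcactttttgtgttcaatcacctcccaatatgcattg
XUT_10R-78: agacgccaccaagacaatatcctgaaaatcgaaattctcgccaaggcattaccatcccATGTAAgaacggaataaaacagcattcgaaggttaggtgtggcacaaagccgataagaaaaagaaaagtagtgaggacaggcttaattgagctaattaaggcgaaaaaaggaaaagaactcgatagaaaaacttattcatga
XUT_5R-11: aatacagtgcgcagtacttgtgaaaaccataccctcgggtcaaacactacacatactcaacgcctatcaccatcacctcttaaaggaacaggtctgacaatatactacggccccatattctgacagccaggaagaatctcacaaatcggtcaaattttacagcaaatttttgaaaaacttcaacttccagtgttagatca
XUT_1R-2: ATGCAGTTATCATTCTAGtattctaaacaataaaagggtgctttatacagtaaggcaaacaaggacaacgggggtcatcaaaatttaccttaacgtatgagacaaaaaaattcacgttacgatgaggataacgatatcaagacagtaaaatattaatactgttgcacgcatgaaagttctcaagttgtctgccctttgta
XUT_15F-206: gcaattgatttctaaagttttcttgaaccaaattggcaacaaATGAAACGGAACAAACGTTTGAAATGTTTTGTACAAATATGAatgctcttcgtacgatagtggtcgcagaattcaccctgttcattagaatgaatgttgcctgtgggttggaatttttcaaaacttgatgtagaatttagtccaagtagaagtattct
XUT_4F-711: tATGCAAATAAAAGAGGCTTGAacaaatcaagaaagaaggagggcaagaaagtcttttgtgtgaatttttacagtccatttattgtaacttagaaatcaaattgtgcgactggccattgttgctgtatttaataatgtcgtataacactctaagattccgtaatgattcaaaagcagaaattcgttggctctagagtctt
XUT_12R-389: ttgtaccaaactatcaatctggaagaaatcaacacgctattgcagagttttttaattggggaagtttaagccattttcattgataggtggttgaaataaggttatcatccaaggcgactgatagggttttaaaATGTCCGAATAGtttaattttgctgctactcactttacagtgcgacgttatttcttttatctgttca

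Their first frames were short. The frame had 15 codons in XUT_15F-1, 1 codon in XUT_10R-78, 5 codons in XUT_1R-2, 13 codons in XUT_15F-206, 6 codons in XUT_4F-711 and 3 codons in XUT_12R-389, and 438 to 1363 bases followed the stop. In XUT_5R-11 the first ATG lay at base 240, beyond the bases shown, and opened a frame of 6 codons. Where transcription starts within these spans was not measured here.

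In the upf1 deletion the XUTs without an opposite ORF rose as a group. Of 380 members with enough counts to be tested, 276 were higher and 18 were lower in the upf1 deletion (edgeR quasi-likelihood test, Benjamini-Hochberg adjusted p under 0.05), while 86 did not pass. Among all 9700 features tested, 37% were called higher and 31.8% lower. The median change of the tested members was a log2 value of 1.07, or 1.06 over all 415 members with no filter on low counts, when 279 were higher and 17 lower. The median over all features tested was 0.02. At least a 2-fold rise was called for 205 members, against 20% of all features tested. A rise of at least 4-fold was called for 54 members, against 495 of all 9700 features tested. Scaling on ORF features alone raised the median of all features to 0.15 and the split over all features to 4119 higher and 2084 lower, with 288 members higher and 11 lower. In bulk RNA, fewer cells of a type and less RNA per cell cannot be told apart.

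The libraries of the genotypes were also compared without a model. For 293 of the 415 members every upf1 deletion library was above every wild-type library, and for 25 every one was below, against 32.2% and 28% of all features. The median over members of the log2 ratio within same-numbered pairs was 0.97, 0.99 and 1.00. Together the members took 0.238 ± 0.00421% of all counts in the upf1 deletion and 0.0896 ± 0.000599% in its wild type (SD, n = 3 each), a ratio of 2.66 with 2.63 to 2.71 over the pairs. Shares divide by unscaled library totals. The upf1 deletion libraries had TMM factors of 1.092, 1.099 and 1.109, against 0.9008, 0.92 and 0.9066 for wild type. A feature with no TMM-scaled change would thus also gain share, and the ratio of 2.66 holds that gain. Whether the 3 samples of a group are separate cultures is not stated in the labels, so p-values here speak of sample-to-sample spread, which may be technical.

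**Figure D1:**
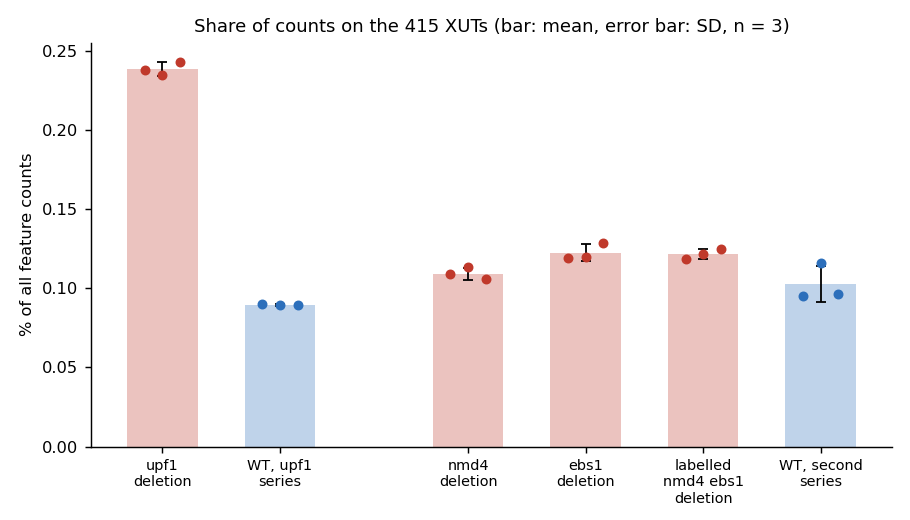
Share of all feature counts that fell on the 415 XUTs, in percent, by library (points), with the mean (bar) and SD (error bar) of the 3 libraries of each group. The 3 upf1 deletion libraries lie at 0.235 to 0.243%, above all others, while in the second series the mutants lie between 0.106 and 0.129% and wild type between 0.0952 and 0.116%. Shares are not TMM-scaled.

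Antisense XUTs had shares of calls near those of the members. Of 1111 antisense XUTs tested, 806 rose and 27 fell, and their median log2 change was 1.08. SUTs, which are more stable non-coding RNAs, had 545 higher and 28 lower of 744, with a median of 1.08. The CUTs, which are mainly removed in the nucleus, had 152 higher and 69 lower of 501 in the first set, with a median of 0.07, and 155 higher and 208 lower of 690 in the second. Of 5891 ORF features tested, 1540 were higher and 2597 lower. The share of counts on antisense XUTs was 3.22 times as large in the upf1 deletion as in its wild type, against the 2.66 times of the members. Over members with no same-strand ORF feature it was 2.95 times as large. A same-strand ORF feature, whose reads count too, was overlapped by 53 of the 415 members and by 46 of the 1243 antisense XUTs. No test was made of the difference between these groups of features.

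**Figure D2:**
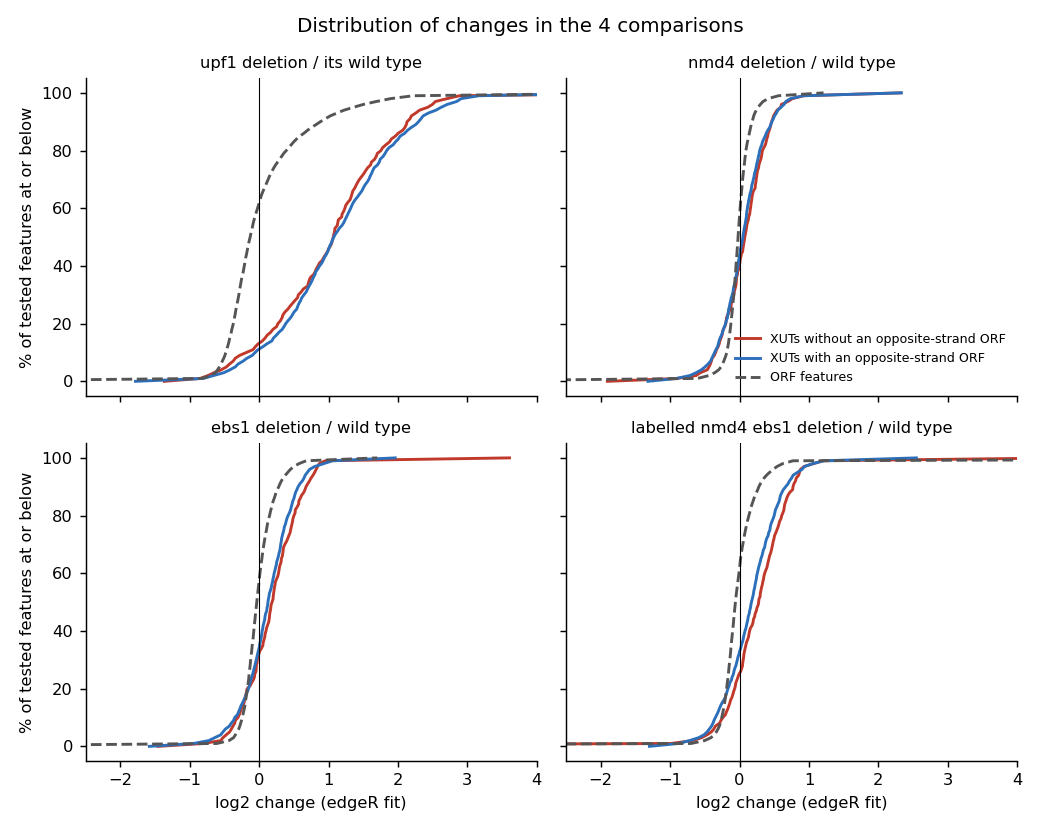
Percentage of tested features (vertical axis) whose log2 change lies at or below the value on the horizontal axis, for XUTs without an opposite-strand ORF (red), XUTs with one (blue) and ORF features (dashed grey), in the 4 comparisons. In the upf1 deletion the red and blue curves cross the 50% level near 1.07 and 1.08, and in the second series the red curve crosses it at 0.08, 0.19 and 0.28. A few features lie beyond the axis limits.

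The largest rise under the naming rule was at the left end of chromosome XV. XUT_15F-1 (XV:3207-4031, plus strand) had 79, 73 and 84 counts in the upf1 deletion, against 0, 0 and 2 counts in wild type. All upf1 deletion libraries were high and wild type was at or next to nothing, so the scaled count ratio of 104 has a 95% counting interval of 28.3 to 860. The fitted log2 change was 6.47 ± 0.47 (SE, adjusted p = 3.8e-07), and 9.22 without wild-type replicate 3, which held both wild-type counts. With no wild-type count left, the value of 9.22 depends on the prior count of the fit and is no measure of size. It overlaps XUT_15R-4 on the minus strand, a member left out by the naming rule because it shares bases with AAD15 on its strand and named here after its values were seen. XUT_15R-4 had 197, 246 and 222 counts in the upf1 deletion, against 1, 2 and 5 counts in wild type. AAD15, an aryl-alcohol dehydrogenase homologue that lies before XUT_15F-1 on the other strand, rose by 5.71 on the log2 scale (adjusted p = 7.2e-07). Features on both strands at that end were thus close to absent in wild type and high in the upf1 deletion. Wild type of the second series was near 0 there too, with 1, 0 and 0 counts of XUT_15F-1. In the nmd4 and ebs1 deletions, compared with that wild type, no member within 20 kb of a chromosome end was called. The largest fitted log2 changes among such members were 2.32 in the nmd4 deletion and 3.61 in the ebs1 deletion. No DNA was measured, so whether the strains carry the same sequence at that end was not tested, and the ratio compares the RNA of these libraries only.

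Of the 12 members named for the largest rises, 6 lay within 20 kb of a chromosome end. Several of the 12 overlap a SUT or CUT on their strand and share its reads. These are XUT_10R-78, XUT_5R-11, XUT_1R-2, XUT_4F-711, XUT_8R-117, XUT_13R-330 and XUT_5R-126. XUT_5R-11 (V:8379-9843, minus strand), which overlaps SUT500 on its strand, stood at 55.0, 57.1 and 55.5 CPM in the upf1 deletion, against 7.39, 7.39 and 7.34 CPM in wild type. The libraries of each genotype hardly varied, and the log2 change was 2.92 ± 0.06 (SE, adjusted p = 1.3e-10). RMD6, 3726 bases before it, rose by 1.09, and YEL073C, 776 bases after it, rose by 1.77. XUT_1R-2 (I:5236-5887, minus strand), which starts 1389 bases past the putative permease gene SEO1 on the same strand, stood at 4.60, 5.12 and 4.64 CPM in the upf1 deletion, against 0.661, 0.754 and 0.546 CPM in wild type. The log2 change was 2.88 ± 0.18 (SE, adjusted p = 1.1e-07), and SEO1 itself rose by 2.23. XUT_4F-711 (IV:1521118-1522502, plus strand), which ends 697 bases before the seripauperin gene PAU10 on its strand, stood at 23.9, 22.5 and 24.8 CPM in the upf1 deletion, against 3.14, 3.62 and 4.20 CPM in wild type. This was a log2 change of 2.70 ± 0.11 (SE, adjusted p = 5.3e-09), and PAU10 rose by 2.32. YDR541C, which lies 197 bases before XUT_4F-711 on the other strand, rose by 0.60.

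XUT_11F-300 and XUT_9F-220 were the other 2 of these end members. XUT_11F-300 (XI:664842-665217, plus strand) has the glutathione exchanger gene GEX2 before it and no listed ORF feature after it. It stood at 2.78, 2.73 and 3.06 CPM in the upf1 deletion, against 0.454, 0.502 and 0.504 CPM in wild type. XUT_9F-220 (IX:436159-436856, plus strand), between YIR042C and YIR043C, stood at 3.20, 2.56 and 3.57 CPM in the upf1 deletion, against 0.330, 0.703 and 0.588 CPM in wild type. Their log2 changes were 2.54 and 2.53, and both neighbours of XUT_9F-220 rose more, by 3.10 and 4.15. GEX2, beside XUT_11F-300, rose by 2.20.

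The other 6 lay in the chromosome arms, mostly between 2 genes. XUT_10R-78 (X:195515-196016, minus strand) starts 194 bases from ASF1, a histone chaperone gene read in the other direction, and stood at 4.47, 4.17 and 3.89 CPM in the upf1 deletion, against 0.496, 0.653 and 0.252 CPM in wild type. Its log2 change was 3.18 ± 0.24 (SE, adjusted p = 5.9e-07), while ASF1 did not pass the test at -0.30 (adjusted p = 0.085). NCA3, 446 bases downstream of XUT_10R-78 on the same strand, fell by 0.28. XUT_15F-206 (XV:437520-438493, plus strand), between ASE1, a spindle midzone protein gene, and the lipase gene LPL1, stood at 7.21, 7.22 and 5.67 CPM in the upf1 deletion, against 1.28, 0.603 and 1.09 CPM in wild type. XUT_8R-117 (VIII:249803-250608, minus strand) runs toward PPE1, a protein methylesterase gene 104 bases downstream, and stood at 25.2, 24.1 and 25.4 CPM in the upf1 deletion, against 3.88, 4.17 and 4.07 CPM in wild type. The log2 changes of these 2 members were 2.72 ± 0.21 and 2.62 ± 0.09 (SE), and PPE1 rose by 0.49 (adjusted p = 0.00095). LPL1 rose by 1.13. ASE1, and PTC7 on the other side of XUT_8R-117, did not pass the test at -0.09 and -0.12.

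Ribosomal protein genes flanked 2 of the named members and moved the other way. XUT_13R-330 (XIII:731438-732100, minus strand) starts 270 bases from RPS10B and ends 216 bases before RRP5, a ribosome assembly gene, and stood at 14.8, 14.4 and 14.2 CPM in the upf1 deletion, against 2.11, 3.07 and 2.39 CPM in wild type. It changed by a log2 value of 2.53 ± 0.13 (SE, adjusted p = 2.6e-08), whereas RPS10B fell by 0.58 and RRP5 fell by 0.54. XUT_5R-126 (V:268366-269097, minus strand) lies between RPL34A and the purine-cytosine permease gene FCY2, and stood at 22.0, 24.2 and 21.5 CPM in the upf1 deletion, against 4.38, 3.52 and 3.90 CPM in wild type. The change was 2.51 ± 0.11 (SE, adjusted p = 6.0e-09), and RPL34A fell by 0.56. FCY2 did not pass the test at -0.13. XUT_10R-288 (X:724436-725384, minus strand), between YJR154W and the pectin-degrading enzyme gene PGU1, stood at 10.2, 9.22 and 10.3 CPM in the upf1 deletion, against 1.24, 1.76 and 2.01 CPM in wild type. There both neighbours rose, YJR154W by 2.11 and PGU1 by 1.62.

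**Figure D3:**
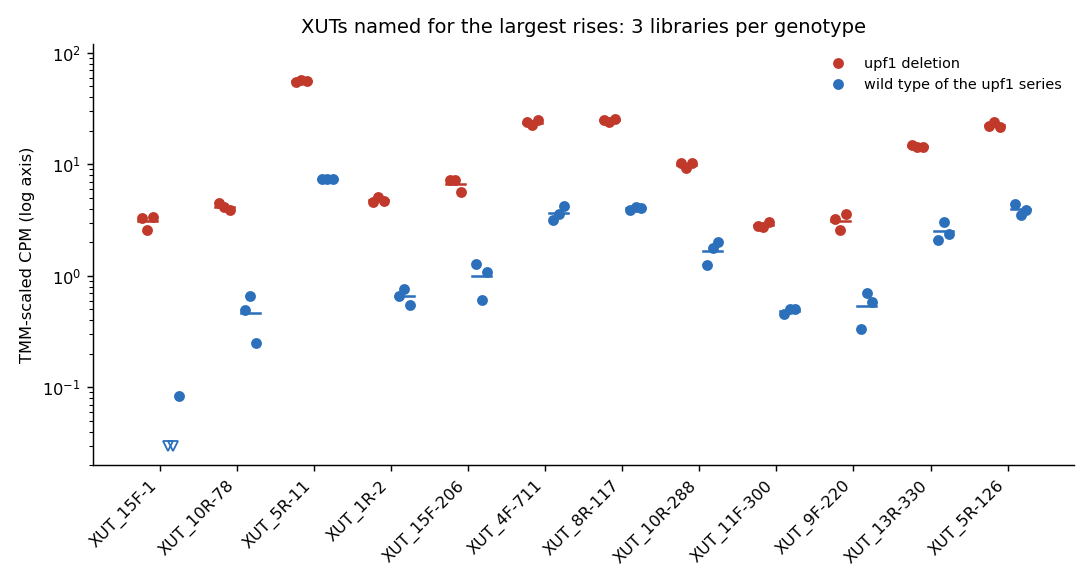
TMM-scaled CPM (log axis) of the 12 XUTs named for the largest rises, in the 3 libraries of the upf1 deletion (red, left) and of its wild type (blue, right), with a line at each mean. Open triangles mark the 2 wild-type libraries with 0 counts of XUT_15F-1, drawn at an arbitrary low value, and the mean of that group is not drawn. The naming rule took only members whose libraries did not overlap between the genotypes, so the absence of overlap is no result.

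Falls were called for far fewer members than rises. At least a 2-fold fall was called for 3 members, against 1.67% of all features tested, and these are named here after their values were seen. XUT_7R-181 (VII:412744-413060, minus strand), which overlaps CUT600 on its strand, stood at 0.380, 0.280 and 0.556 CPM in the upf1 deletion, against 1.12, 0.804 and 1.18 CPM in wild type. Both genotypes were low but did not overlap, and the log2 change was -1.37 ± 0.31 (SE, adjusted p = 0.0021). XUT_13F-370, at 0.295, 0.315 and 0.436 CPM in the upf1 deletion, against 1.07, 0.553 and 0.797 CPM in wild type, had a log2 change of -1.22. XUT_7F-44, which shares its strand with CLG1, stood at 1.48, 1.30 and 1.35 CPM in the upf1 deletion, against 3.39, 3.42 and 1.55 CPM in wild type, a log2 change of -1.01. With a minimum fold of 1.5 in the test, XUT_13F-370 and XUT_7F-44 did not pass.

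The naming rule, which asks for a mean of 2 CPM and no same-strand ORF feature, gave 5 falls. XUT_3F-78 on chromosome III (III:168898-169249, plus strand) had the largest of these, falling to 3.54, 3.64 and 3.17 CPM in the upf1 deletion, against 5.91, 4.67 and 6.04 CPM in wild type. Its log2 change was -0.69 ± 0.14 (SE, adjusted p = 0.0012), and FEN2, the pantothenate transporter gene on the other strand downstream, rose by 1.23. XUT_12F-257, XUT_13R-108, XUT_14F-37 and XUT_5F-239 had log2 changes of -0.57, -0.49, -0.47 and -0.20. The calls of XUT_13R-108, XUT_14F-37 and XUT_5F-239 were lost with scaling on ORF features, and none of the 5 passed in a fit of all 18 libraries. Leaving out wild-type replicate 2 or upf1 deletion replicate 3 ended the call of XUT_13R-108, and leaving out any library but upf1 deletion replicate 3 ended that of XUT_14F-37.

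Members that share a strand with an ORF feature reached up to 82.1 CPM per kb in wild type, reads of that ORF included. The 4 members of highest level per kilobase among those without such overlap are given here, and none of them was among the 12 named rises. XUT_5F-239 (V:503957-504971, plus strand), which ends 123 bases before the chromatin remodeller gene CHD1, led these with 30.9 CPM per kb in wild type. It stood at 27.5, 27.9 and 26.3 CPM in the upf1 deletion, against 32.4, 31.3 and 30.4 CPM in wild type. XUT_5R-194 and XUT_5R-192 lie on both sides of GLC7, the gene of the catalytic subunit of protein phosphatase 1. XUT_5R-194 (V:434929-435670) stood at 39.3, 37.5 and 36.4 CPM in the upf1 deletion, against 18.8, 17.0 and 17.9 CPM in wild type, a log2 change of 1.07. XUT_5R-192 (V:431784-432278), which starts 143 bases from GLC7, stood at 41.4, 33.7 and 39.4 CPM in the upf1 deletion, against 11.1, 9.65 and 9.99 CPM in wild type, a log2 change of 1.89. GLC7 itself did not pass the test (log2 change -0.18, adjusted p = 0.063). XUT_9F-2 (IX:22547-22933, plus strand) lies between HXT12, of the hexose transporter family, and CSS1. It stood at 8.05, 7.04 and 7.02 CPM in the upf1 deletion, against 10.2, 7.49 and 7.64 CPM in wild type. XUT_9F-2 did not pass either (log2 change -0.20, adjusted p = 0.21), while CSS1, 86 bases downstream on the other strand, fell by 1.33 (adjusted p = 0.00013). Over all members the median level was 4.12 CPM per kb in the upf1 deletion and 2.00 CPM per kb in wild type.

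The change varied with position and length. Of 45 tested members within 20 kb of a chromosome end, 41 rose and 0 fell, and the median log2 change was 1.83. Of the 335 farther away, 235 were higher and 18 lower, with a median of 1.00. The higher median near the ends was shared by other features there, since antisense XUTs had 49 higher and 0 lower of 51 with a median of 1.87, and ORF features 112 higher and 16 lower of 157 with a median of 1.05. By length, 63 of 109 tested members of 252 to 406 bases were higher, with a median of 0.79. In members of 409 to 721 bases it was 90 of 133 with a median of 0.91, and in members of 723 to 2908 bases 123 of 138 with a median of 1.32. Longer members also held more counts, with medians of 13.2, 26.8 and 51.3 counts per wild-type library in the 3 classes. Among the 41, 89 and 115 members with at least 20 such counts the medians were 0.31, 0.63 and 1.20. That filter uses the wild-type counts against which the change is taken, so it cannot tell length and depth apart.

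Differences by overlap were smaller. Members with an opposite non-coding feature had 144 higher and 6 lower of 192, with a median of 1.07, and members without one had 132 higher and 12 lower of 188, with a median of 1.06. Members that overlapped a same-strand ORF feature had 32 higher and 8 lower of 51, with a median of 0.73, against 244 higher and 10 lower of 329 and a median of 1.09 in those that did not. The 82 tested members that overlapped nothing listed had 62 higher and 1 lower, with a median of 1.23. Members that both started beside an opposite ORF start and ended before an ORF had a median of 1.07, members that did the first alone 0.82, and members that did the second alone 1.08. Across tested members the Spearman correlation of the change was 0.29 with length, -0.04 with the position of the first ATG, 0.01 with the codons of its frame and 0.28 with the bases after its stop, over 380, 379, 378 and 378 members. By the bases after the stop, the median change was 0.82 in members with 27 to 304, 0.95 in members with 305 to 615 and 1.32 in members with 634 to 2849. Those bases are part of the length, and the 2 were not told apart here. All members share the same libraries and some overlap each other, so these correlations are descriptions.

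**Figure D4:**
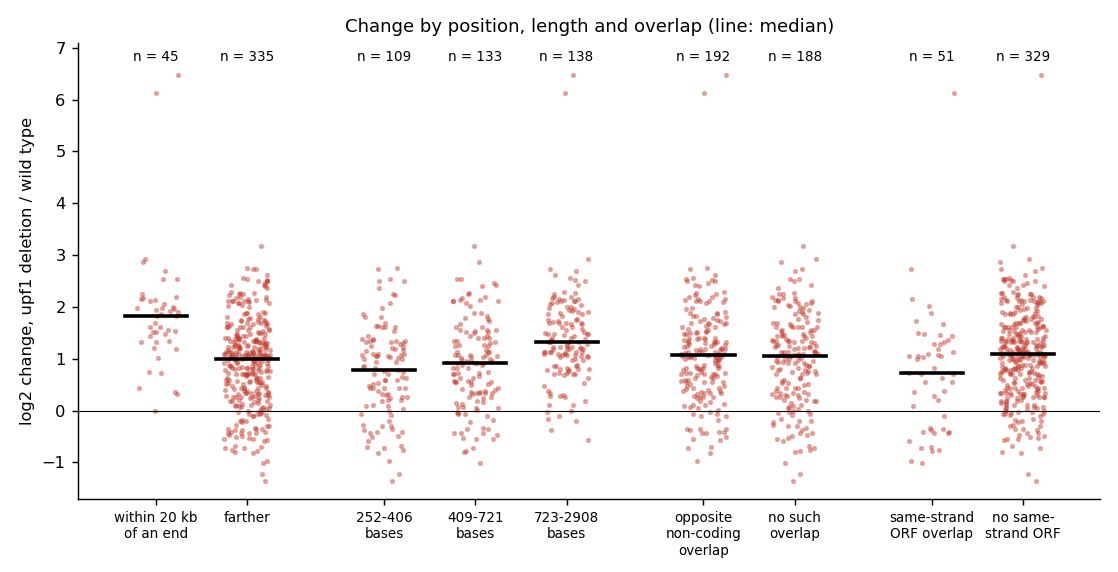
log2 change in the upf1 deletion against its wild type (vertical axis) of each tested XUT (points), by distance to the chromosome end, by length class from short to long, by overlap with an opposite non-coding feature and by overlap with a same-strand ORF feature, with the median of each class as a line. The medians are 1.83 and 1.00 by position, 0.79, 0.91 and 1.32 by length, 1.07 and 1.06 by opposite overlap, and 0.73 and 1.09 by same-strand overlap.

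Some members overlap each other on opposite strands. There were 43 such pairs, of which 40 had both partners tested in the upf1 series. Both partners were higher in 28 pairs, 1 partner was higher and the other did not pass in 10, and neither was higher in 2. Of all tested members 72.6% were higher, so nothing particular to the pairs is read from these counts. No pair had 1 partner higher and the other lower. In the pair by RPS10B, XUT_13F-321 had a log2 change of 2.41 beside the 2.53 of XUT_13R-330, and in the pair by PGU1, XUT_10F-321 had 0.95 beside the 2.57 of XUT_10R-288.

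Adjacent genes were counted by side, and no difference between the sides was tested. Of 162 tested ORF features that started within 500 bases of a member's start in the other direction, 47 were higher and 71 lower, and their median was a log2 change of -0.14 beside the members' 0.99. Of 130 that began within 500 bases downstream on the members' strand, 38 were higher and 51 lower, with a median of -0.06 beside 1.07. Of 56 that lay within that distance before the member on its strand, 22 were higher and 23 lower, with a median of -0.09 beside 1.18. Of 78 that lay as close after it on the other strand, 30 were higher and 29 lower, with a median of -0.05 beside 0.94. Across pairs the Spearman correlation of the changes was -0.06 and 0.09 on the first 2 sides and 0.33 and 0.24 on the last 2. Where the member was called higher, 33 of 115 divergent neighbours were higher and 52 lower, and 30 of 100 downstream neighbours were higher and 36 lower. On the last 2 sides 19 of 42 were higher and 16 lower, and 21 of 52 were higher and 15 lower. Among all ORF features tested 26.1% were higher and 44.1% lower. Scaling on ORF features shifts all values up by about the size of these neighbour medians, so their signs were not read.

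The decay genes chosen for comparison moved in both directions. Of 16 genes of decapping, 5′ to 3′ decay and NMD, 4 were higher and 10 lower in the upf1 deletion. The deleted NAM7 was among the lower ones. Calls were common in that comparison, with rises for 26.1% and falls for 44.1% of the ORF features tested. Nothing particular to the list is therefore read from its counts. NMD4 rose by 2.08 and EBS1 by 1.00 on the log2 scale, and DXO1, a decapping exonuclease gene, rose by 0.59. XRN1, the exonuclease that defines XUTs, fell by 0.44. DCP1 and DCP2, the subunits of the decapping enzyme, fell by 0.73 and 0.31, and DBP2, an RNA helicase gene, fell by 0.48. Beside these falls, the middle value of the ORF features tested was -0.13. Scaling on ORF features alone moved the median of all features from 0.02 to 0.15. The size of small falls such as that of DCP2 therefore depends on the scaling. None of XRN1, DCP1, DCP2 and DBP2 passed the test in the nmd4 deletion, the ebs1 deletion or the labelled nmd4 ebs1 deletion.

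In the nmd4 deletion no member passed the test. Of 369 tested, 0 were higher and 0 lower. Before adjustment 26 had p under 0.05, and DESeq2 and the fit with the replicate number as a block each called 0. Among all 10148 features tested, 0.0394% were called higher and 0.00985% lower. The median log2 change was 0.08, but 0.0089 without wild-type replicate 1, 0.049 without nmd4 deletion replicate 2 and 0.13 without wild-type replicate 3. There were 34 members that had every nmd4 library above every wild-type library and 5 below, against 4.49% and 3.08% of all features. The members took 0.109 ± 0.00379% of counts in the nmd4 deletion and 0.103 ± 0.0115% in wild type (SD, n = 3 each). These shares are not TMM-scaled. The nmd4 deletion libraries had TMM factors of 1.024, 1.006 and 0.9609, against 0.9612, 0.9686 and 0.8809 for wild type. On average a feature with no TMM-scaled change would gain share here too. The 3 members of smallest p were XUT_9F-104, XUT_7R-315 and XUT_12R-389, with adjusted p of 0.84, 0.84 and 0.88 by edgeR. XUT_9F-104, which shares its strand with the retrotransposon ORF YIL082W-A, stood at 6.12, 2.61 and 3.87 CPM in the nmd4 deletion, against 6.74, 34.9 and 5.77 CPM in wild type. The fitted log2 change was -1.90, and -0.58 without wild-type replicate 2, the library that stood apart.

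In the ebs1 deletion 1 member was called. XUT_12R-389 (XII:1052263-1053178, minus strand), between PDP3, a histone acetyltransferase subunit gene, and FMP27, stood at 13.9, 15.2 and 14.9 CPM in the ebs1 deletion, against 9.09, 9.93 and 9.24 CPM in wild type. The groups did not overlap, and the log2 change was 0.64 ± 0.10 (SE, adjusted p = 0.031). It was the 1 call among 369 members, with 0 lower, against 0.355% higher and 0.00985% lower of all features tested. The call was lost when any 1 of the 12 libraries of the series was left out (adjusted p 0.053 to 0.17) and when the labelled nmd4 ebs1 libraries were, and its size stayed between 0.61 and 0.68. In the upf1 deletion the same XUT stood at 24.4, 22.6 and 23.9 CPM, against 9.91, 9.75 and 10.2 CPM in its wild type.

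Same-numbered samples of the second series were handled in parallel by the labels, and a fit with the replicate number as a block called 15 members higher and 2 lower in the ebs1 deletion, against 3.22% and 2.4% of all features. Of these 15 members 14 were also called higher in the upf1 deletion, as were 72.6% of all tested members. Without the block the median log2 change was 0.19, beside 0.13 in antisense XUTs, 0.19 in SUTs and 0.00 over all features. It was 0.10 without wild-type replicate 1 and 0.12 without ebs1 deletion replicate 3. Every ebs1 library was above every wild-type library for 84 members and below for 9, against 8.34% and 5.39% of all features. The members took 0.123 ± 0.00537% of counts in the ebs1 deletion, against the 0.103 ± 0.0115% of wild type. These shares are not TMM-scaled either. The TMM factors of the ebs1 deletion libraries were 1.049, 1.015 and 1.034, all above those of wild type.

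In the labelled nmd4 ebs1 deletion 13 members were higher and 3 lower of 369, against 2.01% and 0.384% of all features tested. The median log2 change was 0.28, beside 0.17 in antisense XUTs, 0.23 in SUTs and -0.01 over all features. With the replicate block 34 were higher and 4 lower, against 5.17% and 3.63% of all features. Without the block the count of higher members was 2 without labelled replicate 1 or 2, 3 without wild-type replicate 3, and 6 without labelled replicate 3 or wild-type replicate 2. It was 7 without ebs1 deletion replicate 1 and 8 without nmd4 deletion replicate 2. Every labelled library was above every wild-type library for 101 members and below for 10, against 9.8% and 6.66% of all features. All 13 higher members were also called higher in the upf1 deletion, which shares no library with this comparison. They are 4.71% of the 276 members called higher there and 100% of the 13, where 72.6% of all tested members were higher in the upf1 deletion.

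The smallest p among the rises was again that of XUT_12R-389, at 13.8, 15.1 and 15.1 CPM in the labelled libraries, against 9.09, 9.93 and 9.24 CPM in wild type (log2 change 0.64 ± 0.10, SE, adjusted p = 0.0078). XUT_5R-11 stood at 10.7, 11.1 and 10.5 CPM in the labelled libraries, against 7.75, 6.45 and 6.53 CPM in wild type, also a log2 change of 0.64 ± 0.12 (SE, adjusted p = 0.014). This call was lost without wild-type replicate 3 or labelled replicate 1 or 2 (adjusted p 0.055, 0.060 and 0.056). XUT_15F-1 had 12, 17 and 15 counts in the labelled libraries, against 1, 0 and 0 in wild type, a scaled ratio of 33.7 with a 95% counting interval of 5.74 to 1360. Its call was lost without wild-type replicate 3 (adjusted p = 0.058). Its opposite partner XUT_15R-4 had 3, 8 and 16 counts in the labelled libraries, against 3, 3 and 6 in wild type, and did not pass (adjusted p = 0.50).

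The 3 lower members were all on chromosome III, which carries the mating-type locus and its silent cassettes. XUT_3F-130 (III:293822-294432, plus strand) shares its strand with HMRA1, the a1 gene of the silent cassette HMR. Reads of HMRA1 count for it too, and whether they came from HMR or from the mating-type locus was not tested. XUT_3F-130 had 0, 0 and 0 counts in the labelled libraries, against 419, 479 and 566 in wild type. This was at least 637-fold lower with a floor of 3 counts over the group. XUT_3F-6 (III:30658-31231, plus strand), which overlaps RDT1 on its strand, had 0, 0 and 1 counts in the labelled libraries, against 157, 180 and 312 in wild type, a scaled ratio of 0.0012 with a 95% counting interval of 3.0e-05 to 0.0066. XUT_3F-5 (III:29541-30536, plus strand), which lies 374 bases before RDT1, had 1, 3 and 3 counts in the labelled libraries, against 327, 262 and 487 in wild type. Its log2 change was -7.57 ± 0.21 (SE, adjusted p = 8.4e-10), and RDT1 fell by 9.31. The 5 a-cell genes listed for the check summed to 25.9 to 29.5 CPM in the labelled libraries, against 745 to 1421 CPM in wild type, and the 3 alpha-cell genes to 1622 to 2156 CPM, against 33.3 to 39.6 CPM in wild type, with no gene at 0 in all libraries of a group. Mating type and the labelled deletions cannot be told apart here. In the upf1 deletion, of mating type a, XUT_3F-5 stood at 29.2, 33.9 and 35.3 CPM, against 8.22, 10.3 and 11.3 CPM in its wild type.

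Across the 2 series the members that rose in the upf1 deletion tended to have the larger values in the ebs1 and labelled nmd4 ebs1 deletions. Over 361 members tested in both series, the Spearman correlation with the upf1 change was 0.16 for the nmd4 deletion, 0.47 for the ebs1 deletion and 0.46 for the labelled nmd4 ebs1 deletion, and over 9519 features of all kinds it was 0.24, 0.52 and 0.53. Among 192 members raised at least 2-fold in the upf1 deletion, the median log2 change was 0.13 under nmd4 deletion, 0.30 under ebs1 deletion and 0.41 for the doubly labelled strain. In the other 169 members it was 0.02, 0.01 and 0.08. A positive value was found for 124, 159 and 164 of the 192. The members share libraries within each series, and the 3 mutants of the second series share 1 wild type, so these values are given side by side.

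**Figure D5:**
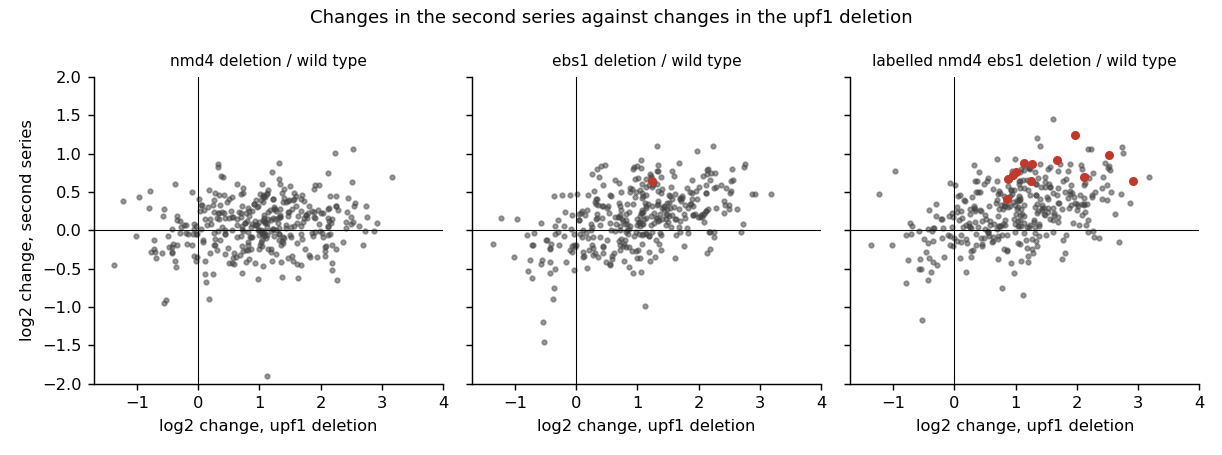
log2 change of each XUT without an opposite ORF in the upf1 deletion against its wild type (horizontal axis) and in the nmd4, ebs1 or labelled nmd4 ebs1 deletion against wild type of the second series (vertical axes). Red points passed the test in the second series, and XUT_15F-1, XUT_15R-4 and, in the right panel, the 3 lower members of chromosome III lie outside the axes. The cloud tilts upward with Spearman values of 0.16, 0.47 and 0.46.

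The effect of upf1 deletion exceeded that of the other strains for many members when the difference itself was tested. In a fit of all 18 libraries, 174 of 393 members were higher for the upf1 effect minus the nmd4 effect and 1 was lower, against 20.8% and 5.42% of all features. For the upf1 effect minus the ebs1 effect 129 were higher and 0 lower, against 16.9% and 2.97%. For the upf1 effect minus the labelled nmd4 ebs1 effect 121 were higher and 2 lower, against 16.3% and 2.54%. The median differences were 0.99, 0.84 and 0.70, beside 0.01 over all features in each. With DESeq2 size factors the medians of all features moved to -0.15, -0.13 and -0.12 and the split over all features for upf1 minus nmd4 to 1845 higher and 1812 lower, while 151 members were higher and 5 lower. The series also differ in experimenter by the labels, and each effect was taken against the wild type of its own series.

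XUT_5R-11 had the smallest p in the differences from nmd4 and ebs1, at 2.82 ± 0.13 and 2.42 ± 0.13 (SE). It stood at 6.95 to 8.01 CPM in the nmd4 deletion and 9.44 to 9.89 CPM in the ebs1 deletion, against 6.45 to 7.75 CPM in wild type. XUT_8R-117 stood at 4.10 to 5.22 CPM in the nmd4 deletion and 5.25 to 5.71 CPM in the ebs1 deletion, against 4.27 to 4.73 CPM in wild type, and differed by 2.57 and 2.32. XUT_4F-50 (IV:80656-83423, plus strand), which ends 1113 bases before the GABA permease gene UGA4, stood at 27.0, 23.6 and 25.9 CPM in the upf1 deletion, against 5.87, 6.43 and 6.84 CPM in its wild type. In the second series it ranged from 8.81 to 12.2 CPM over all 12 libraries. XUT_8R-98 (VIII:201793-204305, minus strand), which ends 412 bases before the aminopeptidase gene AAP1, stood at 44.4, 43.9 and 44.7 CPM in the upf1 deletion, against 8.55, 6.73 and 8.14 CPM in its wild type, and differed from its nmd4 effect by 2.42.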

How the data were processed

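Read counts per feature were deposited in 2 tables, 1 per series, that list the same 12289 features. Per the file headers the authors made the counts with featureCounts (Subread 1.5.0-p3) on the sense strand, assigning a read to every feature it overlaps and leaving out reads with more than 1 alignment. Per the submitters' processing notes reads were aligned with STAR 2.4.2a to R64. Feature spans were checked against the RefSeq R64 genome, which supplied sequences and gene names.

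Members were found by overlap of spans, strand and chromosome. The members, lists and classes were chosen with earlier results of these data known. R 4.3.3 was used, with edgeR 4.0.16 and, as an alternative, DESeq2 1.42.0. Features were kept by filterByExpr at a minimum count of 10, scaled by TMM and tested 2-sided by the quasi-likelihood method of edgeR. Calls have p under 0.05 after Benjamini-Hochberg adjustment over all features. The fit used 6 libraries for the upf1 series, 12 for the second series and 18 for differences of effects, with group as the only term. CPM values use TMM-scaled totals, pair ratios add 0.1 CPM, and a standard error is the log2 change over the root of the F statistic. Count ratios carry exact 95% intervals, which like floors of 3 counts cover counting error only. The fits were tested on simulated counts.

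Named for the upf1 deletion were up to 12 rises, 6 falls and the 4 members of highest CPM per kb in wild type. Rises and falls needed a call, a mean of 2 CPM in the higher group, no overlap of libraries and no same-strand ORF feature, and the abundant members no such ORF feature. In the second series up to 6 called members by p were named, or the 3 of smallest p, and for differences up to 4 by p. The main fits did not use pairs. The labels say which samples were handled in parallel, so same-numbered samples were treated as pairs in the pair ratios and the replicate block only. Their deviations from group means correlated at 0.044 to 0.226 in the upf1 series and -0.011 to 0.645 in the second, against -0.188 to 0.068 and -0.471 to 0.213 for other numbers.

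XUT_15R-4 and the 3 members called at least 2-fold lower were named after their values were seen. Alternatives were other scalings, filters, DESeq2, the replicate block, a minimum fold of 1.5, 1 fit of 18 libraries, leaving out libraries and narrower sets of members. 4 splits were added after seeing the data: members by length with at least 20 wild-type counts, other features near chromosome ends, members more than 20 kb from an end and members outside chromosome III.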

Additional observations from a re-analysis of the deposited data

Results flagged for a closer look

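The effect of the upf1 deletion differed from that of another strain for the members below, by the edgeR test of the difference of log2 changes in a fit of all 18 libraries. For the upf1 effect minus the nmd4 effect, the difference was 2.82 for XUT_5R-11, 2.57 for XUT_8R-117, 2.01 for XUT_4F-50 and 2.42 for XUT_8R-98. For the upf1 effect minus the ebs1 effect it was 2.42 for XUT_5R-11, 2.32 for XUT_8R-117, 1.80 for XUT_4F-50 and 2.69 for XUT_4F-711. For the upf1 effect minus the labelled nmd4 ebs1 effect it was 2.26 for XUT_5R-11. On chromosome III it was 9.27 for XUT_3F-5, 9.13 for XUT_3F-6 and 11.57 for XUT_3F-130. The last 2 have 1 and 0 counts in all labelled libraries together, so their fitted values depend on the prior count and are no measure of size. Mating type differs between those libraries and their wild type, and its part was not tested. Listed for each difference are the 4 members of smallest p.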

How the results depend on the processing

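No median and no named member changed sign under any alternative run, but with 1 library left out the median ranged over 0.0089 to 0.13 for the nmd4 deletion and 0.10 to 0.26 for the ebs1 deletion. For the upf1 deletion the higher count was 198 to 288 over the other settings, and 259 to 265 with 1 library left out. The lower count was 11 with scaling on ORF features, 1 with a minimum fold of 1.5 and 8 in the fit of 18 libraries, and 13 to 17 with 1 library left out. For the ebs1 deletion the higher count was 2 with scaling on ORF features, 8 with DESeq2, 15 with the replicate block, 0 with the minimum fold, 9 in the fit of 18 libraries and 0 without the labelled libraries or any 1 library. Its lower count was 1 with DESeq2 and 2 with the replicate block, and 0 to 1 with 1 library left out. For the labelled nmd4 ebs1 deletion the higher count was 34 with the replicate block, 1 with the minimum fold and 31 in the fit of 18 libraries, and 2 to 11 with 1 library left out.

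For the upf1 effect minus the nmd4 effect the higher count was 104 with the minimum fold. The lower count was 5 with DESeq2 size factors, 5 with no filter, 3 with at least 10 counts in every library of a group, 6 with DESeq2, 7 with the replicate block and 0 with the minimum fold, and 0 to 4 with 1 library left out. For upf1 minus ebs1 the higher count was 78 with the minimum fold and the lower count 1 with DESeq2 size factors, 1 with no filter, 2 with DESeq2 and 4 with the replicate block, and 0 to 2 with 1 library left out. For upf1 minus the labelled effect the higher count was 73 with the minimum fold, and the lower count 5 with the replicate block, 1 with the minimum fold and 1 to 4 with 1 library left out. The ratio of shares in the upf1 deletion was 2.95 over members with no same-strand ORF feature. The causes were not tested. The replicate block moved no other count by more than 1.5 times and ended no named member's call.

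Members held a median of 15 to 62 counts per library, so small changes of many members may not be detectable at this depth, and members that share a strand with another feature share its reads.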
